A study of Mus musculus with 278 samples.

Results

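The inhibitor of DNA binding (ID) family was examined in single spermatogonia of the mouse testis. Its members Id1, Id2, Id3 and Id4 were taken by name as 4 rows of the deposited expression matrix of 23354 genes, and all 4 were found. The cells were 278 single spermatogonia from untreated mice at postnatal day 6. All carried an EGFP reporter of Id4, and all had been sorted as EGFP-positive from pooled testes of at least 2 pups. They were captured on a Fluidigm C1 chip, a microfluidic device that isolates single cells for library preparation, and imaged before lysis. Brightness in the images placed each cell in 1 of 4 quartiles, from the brightest, Q1 (74 cells), through Q2 (70) and Q3 (74) to the dimmest, Q4 (60). The quartiles thus differed in reporter brightness and shared age, sort, reporter and treatment. No cell without the reporter was part of the comparison. The sources used here do not give strain, sex or the make-up of the reporter. A protocol passage calls the dimmest quartile by another number than the design text, whose order was followed.

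ID proteins hold a helix-loop-helix domain but lack the basic region with which other proteins of that class contact DNA. They pair with E proteins, the broadly expressed partners of basic helix-loop-helix (bHLH) activators, and the resulting pairs do not bind DNA. Their genes are classical targets of bone morphogenetic protein (BMP) signalling through SMAD proteins. In the testis, ID4 is known as a marker and regulator of spermatogonial stem cells, and brightness of an Id4 reporter has been used to grade spermatogonia from stem cells to progenitors.

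In the 1 annotated transcript of each that was compared, the members differ in sequence enough to be told apart by sequenced fragments. In GENCODE M21 (GRCm38), Id1 lies on chromosome 2 (152736251 to 152737410, plus strand), Id2 on chromosome 12 (25093799 to 25097140, minus strand), Id3 on chromosome 4 (136143497 to 136145755, plus strand) and Id4 on chromosome 13 (48261228 to 48266026, plus strand). The stretch of 120 coding bases most alike in all 4 members lies in exon 1 of each and encodes part of the helix-loop-helix domain. It is shown because this domain defines the family. Capitals mark the 69 of 120 bases that are the same in all 4 members, and each line runs 5′ to 3′ on the coding strand.
Id1: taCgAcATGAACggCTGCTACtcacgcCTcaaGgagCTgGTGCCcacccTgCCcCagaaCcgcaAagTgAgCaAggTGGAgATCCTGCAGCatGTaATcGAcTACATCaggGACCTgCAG
Id2: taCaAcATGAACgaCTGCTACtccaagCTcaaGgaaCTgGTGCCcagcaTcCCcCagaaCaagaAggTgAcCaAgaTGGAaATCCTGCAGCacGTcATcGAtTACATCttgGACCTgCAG
Id3: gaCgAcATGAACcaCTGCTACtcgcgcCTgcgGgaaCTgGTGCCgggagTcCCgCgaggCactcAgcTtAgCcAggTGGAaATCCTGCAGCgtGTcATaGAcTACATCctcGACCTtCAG
Id4: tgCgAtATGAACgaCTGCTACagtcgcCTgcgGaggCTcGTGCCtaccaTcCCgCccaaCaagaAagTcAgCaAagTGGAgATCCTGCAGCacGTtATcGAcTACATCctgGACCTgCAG
The pieces lie at chr2:152736518-152736637, chr12:25095783-25095902, chr4:136144002-136144121 and chr13:48261693-48261812 of GRCm38, in the order of the lines. In this stretch Id1 and Id2 were the most alike pair (81.7% of bases the same). Id3 shared 70.8% with Id1, 71.7% with Id2 and 70.8% with Id4. The longest run of coding bases shared by any pair was 17 bases (Id1 and Id4). No pair shared a run of 40 bases in the 1 transcript of each that was compared. Over its exons Id4 overlaps 2 RNAs on the opposite strand, A330033J07Rik (82 bases) and Gm49291 (171 bases). The sources used here do not say whether strand was used in the quantification, so reads of these RNAs and of Id4 cannot be told apart there.

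The reporter follows Id4, so the sequence before its start is shown as well. RefSeq (GRCm38.p6) gives the following 250 bases upstream of the Id4 start, at chr13:48260866-48261115, plus strand, 5′ to 3′. Capitals mark CCAAT (here on the minus strand, read as its complement) and GGCGCC, a GC-rich motif known from SMAD-bound elements of ID genes.
Id4: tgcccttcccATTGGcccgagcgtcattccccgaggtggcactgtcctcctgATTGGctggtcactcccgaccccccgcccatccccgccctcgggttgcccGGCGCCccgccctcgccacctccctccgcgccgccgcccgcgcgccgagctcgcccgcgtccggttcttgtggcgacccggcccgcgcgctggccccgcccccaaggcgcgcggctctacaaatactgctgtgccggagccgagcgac
Motifs were searched on both strands from 250 bases before to 50 bases after the start. RefSeq and GENCODE place the starts differently. The Id4 window ends before the GENCODE start given above, and the Id2 and Id3 windows lie inside their GENCODE genes. All motif counts thus rest on the RefSeq starts. The window of Id4 held GGCGCC once and that of Id2 held it once, while that of Id3 held none. This motif was present in 11.9% of 32851 promoter windows of the same length. CCAAT occurred 2 times for Id4, 3 times for Id2 and 0 times for Id3 (37.4% of windows hold it). GGGCGG, the letters of SP factors, occurred 5 times for Id4, 2 times for Id3 and 1 time for Id2 (35.7% of windows). TGACG, the core of a cyclic AMP response element, occurred 1 time each for Id3 and Id4 (20.8%), and GTCTG, a short SMAD motif, 2 times for Id3 alone (49.6%). The E-box CANNTG, the binding motif of bHLH pairs, occurred 1 time for Id2, as CAGCTG, and not in the windows of Id3 and Id4 (CANNTG is in 72.3% of windows, CAGCTG in 16.3%). CAGGTG (20.2% of windows) and TATAAA (13.6%) were in none of the 3 windows. The Id4 window was 73.3% GC, more than 94.5% of promoters, against 63.3% for Id2 and 60% for Id3. The promoter table matched 3 of the 4 members, without Id1.

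The values are FPKM, which divide the fragments of a gene by its transcript length and by the depth of the cell, so levels of different genes are compared per length. A transcript was called detected in a cell at FPKM of at least 1. Depth, estimated from the steps between low values, was 624541 fragments per cell at the median (203557 to 1240304). At the median depth, 1 fragment was worth 0.416 FPKM for Id4, whose annotated transcript is 3849 bases long. It was worth 0.813 FPKM for Id2, 1.253 for Id3 and 1.38 for Id1, taking the longest annotated transcript of each (1969, 1278 and 1160 bases). The shortest ones have 958, 277 and 934 bases and would give higher values. The same threshold thus asked for more fragments of Id4 than of the shorter members. A listed 0 may reflect an uncaptured molecule or an estimate that failed. All 278 cells held at least 3 of 13 germ cell markers (median 11), and Ddx4, Dazl, Mael and Uchl1 were detected in 100% of cells. Cells were grouped into 5 preparations of 26, 62, 37, 75 and 78 cells by the run number in the sample titles. That this number stands for the preparation was assumed, since the labels do not state it. Cells are not replicates, so quartiles were compared over the 5 preparations. The labels speak of replicate preparations without naming separate litters, so p-values measure only the spread between these groups. Preparation 3 had 4437 detected genes per cell, and the other 4 had 5875 to 7148. Intervals of shares above 0 are exact (Clopper-Pearson, 95%). For a share of 0 the limit given is 3 cells of the total. Both cover counting error only.

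Id4, the gene of the reporter, was the member found in the most cells. It was detected in 116 of 278 cells (41.7%, interval 35.9 to 47.8), Id3 in 54 (19.4%, 14.9 to 24.6), Id2 in 24 (8.63%, 5.61 to 12.6) and Id1 in 15 (5.40%, 3.05 to 8.74). The other 162 cells, also sorted for the reporter, had no Id4 transcript at this threshold, and 120 of 278 cells had an Id4 value above 0. Id4-detected cells held an estimated 28.5 Id4 fragments at the median, and 35 of the 116 held fewer than 10.

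By mean level the order was Id4, Id3, Id2, Id1, while within positive cells Id3 and Id2 had higher medians than Id4, and Id1 had the lowest. Averaged over all cells of a preparation, Id4 stood at 9.26 ± 1.69 FPKM, Id3 at 8.45 ± 4.79, Id2 at 2.46 ± 2.85 and Id1 at 0.876 ± 0.532 (SD, n = 5). By mean FPKM Id4 exceeded 73.5% of the 23354 genes, Id3 72.01%, Id2 61.5% and Id1 50.4%. Within the cells that had the transcript, Id3 had the highest median, 31.4 FPKM, against 18.7 for Id2, 11.2 for Id4 and 8.86 for Id1. Id3 also gave the highest single value, 326 FPKM, against 207 for Id2, 162 for Id4 and 48.002 for Id1. A few cells thus carried much of the family's signal: the top 3 cells held 54.9% of all Id1 FPKM, 47.8% of Id2, 26.7% of Id3 and 16.8% of Id4.

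The difference between members was measured within each preparation on log2(FPKM + 1). Id4 lay above Id1 by 1.29 ± 0.42 and above Id2 by 1.17 ± 0.31, in 5 of 5 preparations each (SD, n = 5, exact permutation p = 0.0625 each, adjusted p = 0.125 over 6 pairs). Id3 lay above Id1 by 0.74 ± 0.47 in 5 of 5 preparations (exact p = 0.0625, adjusted p = 0.125). With 5 preparations 0.0625 is the smallest p this two-sided test can give, so it cannot pass 0.05. Neighbours in the order did not reach that smallest p: Id4 minus Id3 was 0.54 ± 0.38 (4 of 5 preparations, exact p = 0.125), Id3 minus Id2 was 0.63 ± 0.51 (4 of 5, exact p = 0.125) and Id2 minus Id1 was 0.11 ± 0.25 (3 of 5, exact p = 0.4375), with adjusted p = 0.15, 0.15 and 0.4375.

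Relative to its mean, the share of cells with Id4 varied least across preparations (41.5 ± 11.3%) and that with Id2 most (8.64 ± 6.12%), with Id3 at 21.1 ± 9.18% and Id1 at 6.17 ± 3.30% (SD, n = 5). Id4 was detected in 50, 53.2, 24.3, 40 and 39.7% of cells of preparations 1 to 5. Id3 was detected in 34.6, 25.8, 13.5, 18.7 and 12.8%. The lowest Id4 share was in preparation 3, the one with the fewest detected genes per cell. Id2 was detected in 15.4, 9.68, 0, 5.33 and 12.8%. None of the 37 cells of preparation 3 had it, which allows a share of up to 8.11%. Id1 was detected in 11.5, 4.84, 5.41, 2.67 and 6.41%.

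**Figure D1:**
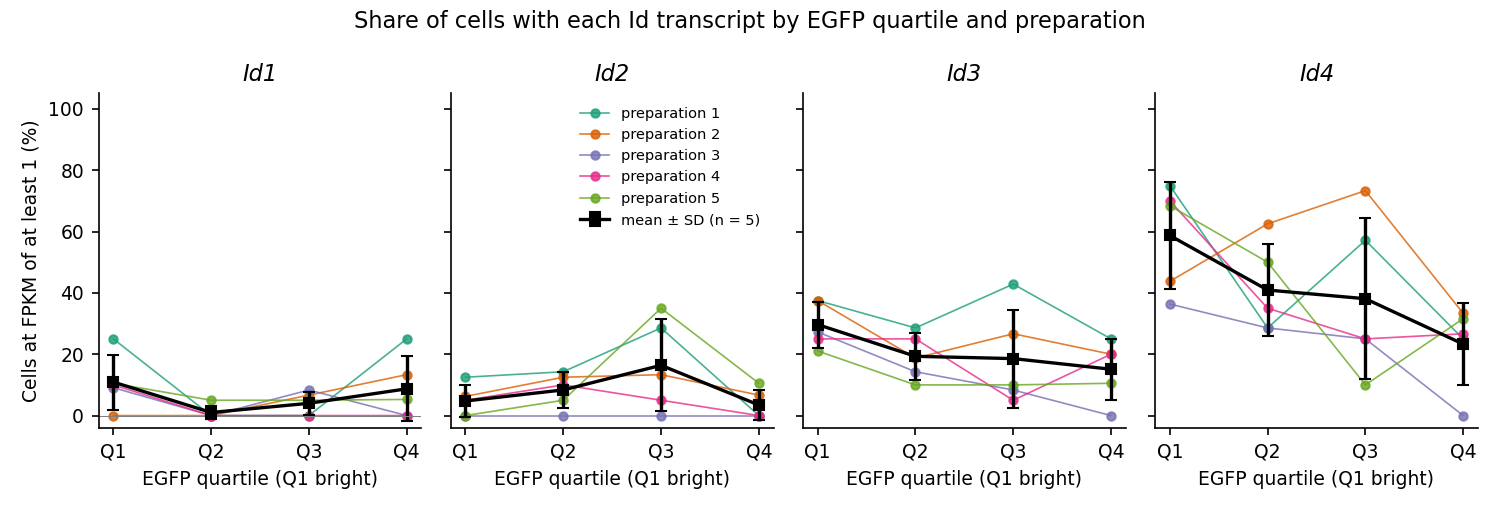
Percent of cells in which each Id gene was detected (at least 1 FPKM) by EGFP quartile, from Q1 (bright) to Q4 (dim). Coloured lines are the 5 preparations and black squares their mean ± SD. Id4 is highest on average in Q1 and lowest in Q4, Id3 follows with smaller differences, Id2 has its highest mean in Q3, and Id1 stays low throughout.

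Id4 transcript was found in more of the bright cells and at a higher mean level there, and its mean was lower in each dimmer quartile. From Q1 to Q4 it was detected in 44 of 74, 31 of 70, 25 of 74 and 16 of 60 cells. The share in Q1 exceeded that in Q4 in every preparation, but the 2 middle quartiles did not keep an order from one preparation to the next. The difference between Q1 and Q4 did not pass the test over all genes.

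By preparation, the share of cells with Id4 in Q1 was 75, 43.8, 36.4, 70 and 68.4%. In Q4 it was 25, 33.3, 0, 26.7 and 31.6%. Each Q1 value lay above each Q4 value, which held for 0.411% of the 10452 genes tested, against 0.0287% with each Q1 value below. The 0 of preparation 3 rests on 7 cells and allows a share of up to 42.9%. In Q2 the shares were 28.6, 62.5, 28.6, 35 and 50%, and in Q3 they were 57.1, 73.3, 25, 25 and 10%, so both middle quartiles overlapped with Q1 and with Q4. Preparation 2 departed from the others, since its Q1 share lay below its Q2 and Q3 shares. The share of cells in Q1 exceeded that in Q4 by 35.4 ± 15.03 percentage points (SD, n = 5), from 10.4 to 50 points, higher in 5 of 5 preparations (exact permutation p = 0.0625, the smallest possible, adjusted p = 0.125 over the 4 members). A higher share in Q1 in 5 of 5 preparations was found for 5.42% of genes tested and a lower one for 0.421%, and the Id4 difference was larger than that of 99.9% of them, whose median was 4.65 points.

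Mean Id4 level per preparation was 19.9, 7.11, 9.54, 19.1 and 31.2 FPKM in Q1 and 0.496, 4.81, 0, 11.1 and 2.42 FPKM in Q4. Preparations 2 and 3 of Q1 thus lay below preparation 4 of Q4 on this scale. The group means from Q1 to Q4 were 17.4 ± 9.57, 8.61 ± 6.76, 6.68 ± 5.39 and 3.77 ± 4.53 FPKM (SD, n = 5). On log2(FPKM + 1), a scale that understates changes of low genes, Id4 was higher in Q1 than in Q4 by 1.61 ± 0.41 (SE, limma p = 0.000692, adjusted p = 0.138). The slope over all quartiles was 0.50 ± 0.13 per step toward Q1 (limma adjusted p = 0.117). By p, Id4 ranked 51 of 10452 genes in the first comparison and 66 in the second, and 99.8% of genes had a lower difference. In that comparison 0.0765% of genes tested passed with a higher level in Q1 (8 genes) and 0% with a lower one, and for the slope 0.134% passed with a rise toward Q1 (14 genes) and 0% with a fall. At an unadjusted p under 0.05 the shares were 10.4% higher and 1.03% lower, and 11% and 1.24% for the slope. The 8 genes became 0 without preparation 1, 4 or 5 and 2 without preparation 3, and the 14 became 0 and 9. Without preparation 2 Id4 passed both tests, at 1.92 (limma adjusted p = 0.0465) and at 0.62 per step (adjusted p = 0.0384).

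No single step between neighbouring quartiles passed for Id4. The step from Q2 to Q1 was 0.92 ± 0.40 (limma p = 0.0279, adjusted p = 0.999), that from Q3 to Q2 was 0.18 ± 0.40 (adjusted p = 0.980) and that from Q4 to Q3 was 0.50 ± 0.41 (adjusted p = 0.829). The same held for all genes tested: 0% passed at any of these steps, with 2.24, 2.75 and 6.64% higher toward Q1 at an unadjusted p under 0.05 and 1.84, 1.93 and 0.756% lower. Among cells that had Id4, the level was higher in Q1 than in Q4 in 3 of the 4 preparations with such cells in both. The mean difference was 1.31 ± 1.82 on log2(FPKM), without the added 1 (SD, n = 4, exact permutation p = 0.375, smallest possible 0.125). The values were 2.90, 0.26, -0.71 and 2.81 in preparations 1, 2, 4 and 5, so on this measure preparation 4 went against the other 3.

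The bright cells also had more detected genes of any kind, by 561 ± 379 genes per cell between Q1 and Q4 (SD, n = 5, 5 of 5 preparations, exact permutation p = 0.0625), and the median difference of all genes tested was 0.17 on log2(FPKM + 1). The estimated depth was similar, at 604478 ± 122381 fragments in Q1 and 588837 ± 172517 in Q4. Cells with Id4 had 164 ± 331 more detected genes than cells without it in the same preparation (3 of 5 higher). When the mean number of detected genes entered the fit, the Id4 difference was 1.93 (limma p = 0.00759, adjusted p = 0.799), and no gene passed. The part of these values in the Id4 difference was not tested further.

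**Figure D2:**
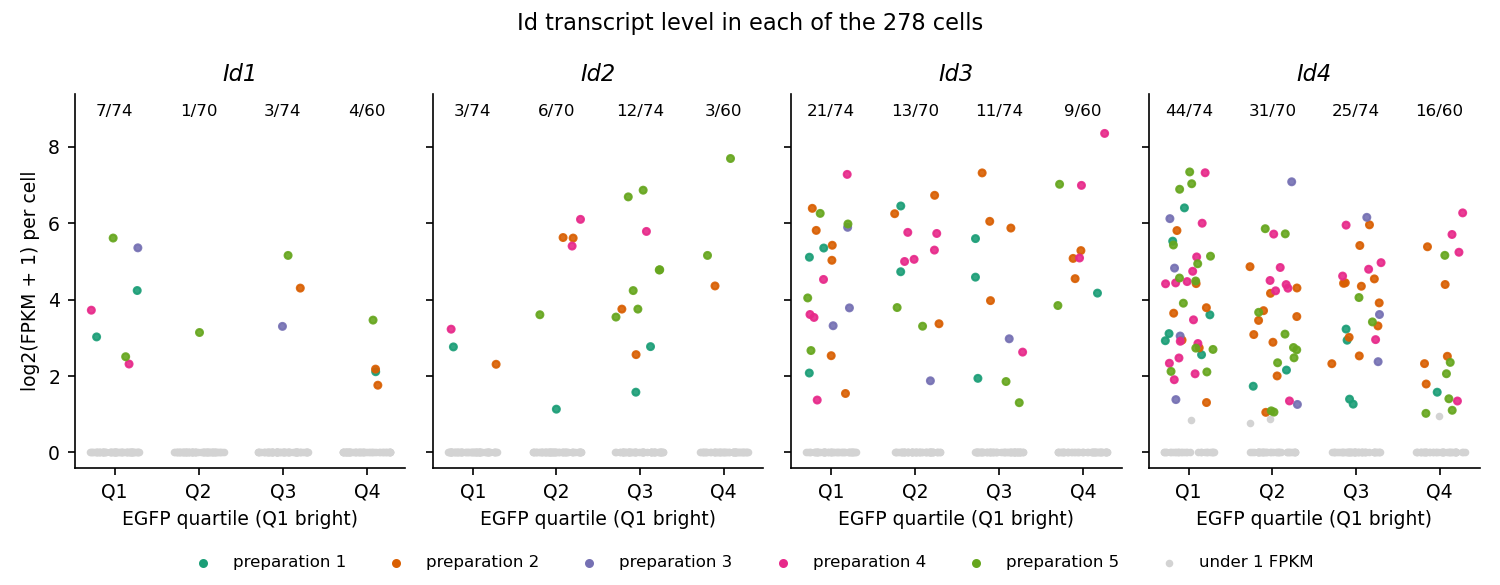
Level of each Id gene in every cell on log2(FPKM + 1), by EGFP quartile. Each dot is 1 cell, coloured by preparation where FPKM is at least 1 and grey below, and the fractions give detected cells of all cells. Detected Id4 values crowd in Q1, while the highest Id2 and Id3 values, 207 and 326 FPKM, lie in Q4.

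Id3, which is induced by BMP signalling in many cell types, had a share of cells that was higher in Q1 than in Q4 in every preparation at FPKM of at least 1 but not at 5, and its level did not pass. From Q1 to Q4 it was detected in 21 of 74, 13 of 70, 11 of 74 and 9 of 60 cells. Among cells that had Id3, those of Q4 had the higher mean level. Mean FPKM over all cells was 9.78 in Q1 and 10.1 in Q4.

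The share of cells with Id3 in Q1 was 37.5, 37.5, 27.3, 25 and 21.1% by preparation. In Q4 it was 25, 20, 0, 20 and 10.53%, so the groups overlapped narrowly. Q1 exceeded Q4 by 14.6 ± 8.40 points (SD, n = 5), from 5 to 27.3, in 5 of 5 preparations (exact permutation p = 0.0625, adjusted p = 0.125), a difference larger than that of 87.9% of genes tested. With detection set at FPKM of 5 it was 8.56 points, higher in 3 preparations and equal in 2 (exact permutation p = 0.25). Middle quartiles again spread widely, from 10 to 28.6% in Q2 and from 5 to 42.9% in Q3.

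Mean Id3 level was 9.59, 13.7, 7.30, 10.006 and 8.36 FPKM in Q1 and 4.26, 6.22, 0, 32.4 and 7.497 FPKM in Q4. Preparation 4 of Q4 lay above every Q1 value, with 2 cells at 126 and 326 FPKM. Means from Q1 to Q4 were 9.78 ± 2.42, 7.95 ± 6.91, 6.26 ± 8.74 and 10.1 ± 12.8 FPKM (SD, n = 5). The limma difference of Q1 and Q4 was 0.38 ± 0.26 (SE, adjusted p = 0.625), higher than in 71.2% of genes, and the slope was 0.14 ± 0.08 per step (adjusted p = 0.517). Among cells that had Id3, the mean level was lower in Q1 than in Q4 in 4 of 4 preparations with such cells in both. The differences on log2(FPKM), without the added 1, were -0.06, -0.63, -2.93 and -0.73. Their mean was -1.09 ± 1.26 (SD, n = 4, exact permutation p = 0.125, the smallest possible). These means rest on 1 to 6 cells each. Cells with Id3 had 200 ± 379 more detected genes than the others (SD, n = 5, 4 of 5 preparations).

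Id2, a member known for roles in lymphoid and mammary cells, had its highest share of cells in Q3 and not at either end of reporter brightness. From Q1 to Q4 it was detected in 3 of 74, 6 of 70, 12 of 74 and 3 of 60 cells. The Q3 cells came mainly from 1 preparation. Of the 12, 7 were from preparation 5, where 35% of Q3 cells had it, and 2, 2 and 1 were from preparations 1, 2 and 4.

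The share of cells with Id2 in Q1 was 12.5, 6.25, 0, 5 and 0% by preparation. In Q4 it was 0, 6.67, 0, 0 and 10.53%, and in Q3 it was 28.6, 13.3, 0, 5 and 35%. Q1 and Q4 overlapped throughout and differed by 1.31 ± 8.42 points (SD, n = 5, 2 preparations higher and 2 lower, exact permutation p = 0.75). This turned to -1.49 points without preparation 1, was 0.389 without preparation 4 and 4.27 without preparation 5, and was 0.0614 with detection at FPKM of 5. Mean level from Q1 to Q4 was 0.278 ± 0.306, 2.44 ± 3.03, 4.12 ± 6.50 and 2.80 ± 5.56 FPKM (SD, n = 5). A single cell at 207 FPKM held 23.2% of all Id2 signal and lay in Q4 of preparation 5. Id2 was below the filter of 10% of cells. In a fit without that filter, Q1 minus Q4 was -0.14 ± 0.25 (SE, limma adjusted p = 0.916), and Q3 minus Q4 was 0.44 ± 0.25 (limma p = 0.0958, adjusted p = 0.822). Without preparation 5 the first turned to 0.060.

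Id1, a BMP target in endothelial and many stem cell settings, was the rarest member, with few cells in any quartile. From Q1 to Q4 it was detected in 7 of 74, 1 of 70, 3 of 74 and 4 of 60 cells. By preparation the share in Q1 was 25, 0, 9.09, 10 and 10.53%, and in Q4 it was 25, 13.3, 0, 0 and 5.26%. These groups overlapped and differed by 2.20 ± 9.54 points (SD, n = 5, 3 preparations higher and 1 lower, exact permutation p = 0.625). The difference was 6.09 points without preparation 2, and 0.482, 0.255 and 1.44 without preparations 3, 4 and 5. With detection at FPKM of 5 it was 7.82 points. With 4 to 20 cells in each quartile of a preparation, a share of 0 allows up to 75% in the smallest and 15% in the largest. Detected Id1 levels had a median of 12.2 FPKM in Q1 and 3.43 FPKM in Q4, over 7 and 4 cells. In the fit without a filter, Q1 minus Q4 was 0.20 ± 0.11 (SE, limma adjusted p = 0.614). Q1 minus Q2 was 0.31 ± 0.11 (limma p = 0.00953, adjusted p = 0.858). When the mean number of detected genes entered the fit, the difference of Q1 and Q4 turned to -0.016.

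Most cells had 1 member or none, and no pair passed the test of its observed against its expected share, which cannot pass 0.05 with 5 preparations. No member was detected in 112 of 278 cells (40.3%), 1 member in 126, 2 in 37 and 3 in 3. No cell had all 4, which allows a share of up to 1.079%. From Q1 to Q4 the share of cells without any member was 25.7, 40, 44.6 and 53.3%. Taken by preparation, cells with at least 1 member made up 74.1 ± 13.4, 57.8 ± 9.398, 59.5 ± 28.3 and 45.8 ± 28.1% of the quartiles in that order (SD, n = 5). The ranges for Q1 (54.5 to 87.5%) and Q4 (0 to 75%) overlapped. Pooled over the preparations, which themselves differ in detected genes, cells without a member had 5916 detected genes at the median and those with 1 member 6481.

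Id4 alone was the most frequent combination, with 84 cells, followed by Id3 alone (28), Id3 with Id4 (17), Id2 alone (11) and Id2 with Id4 (8). Of the 84 cells with Id4 alone, the quartiles from Q1 to Q4 held 27, 24, 19 and 14. Of the 11 cells with Id2 alone, 9 were in Q3, and 7 of these 9 came from preparation 5. The 3 cells with 3 members held Id1, Id2 and Id3 in Q3, Id1, Id3 and Id4 in Q1, and Id2, Id3 and Id4 in Q3.

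**Figure D3:**
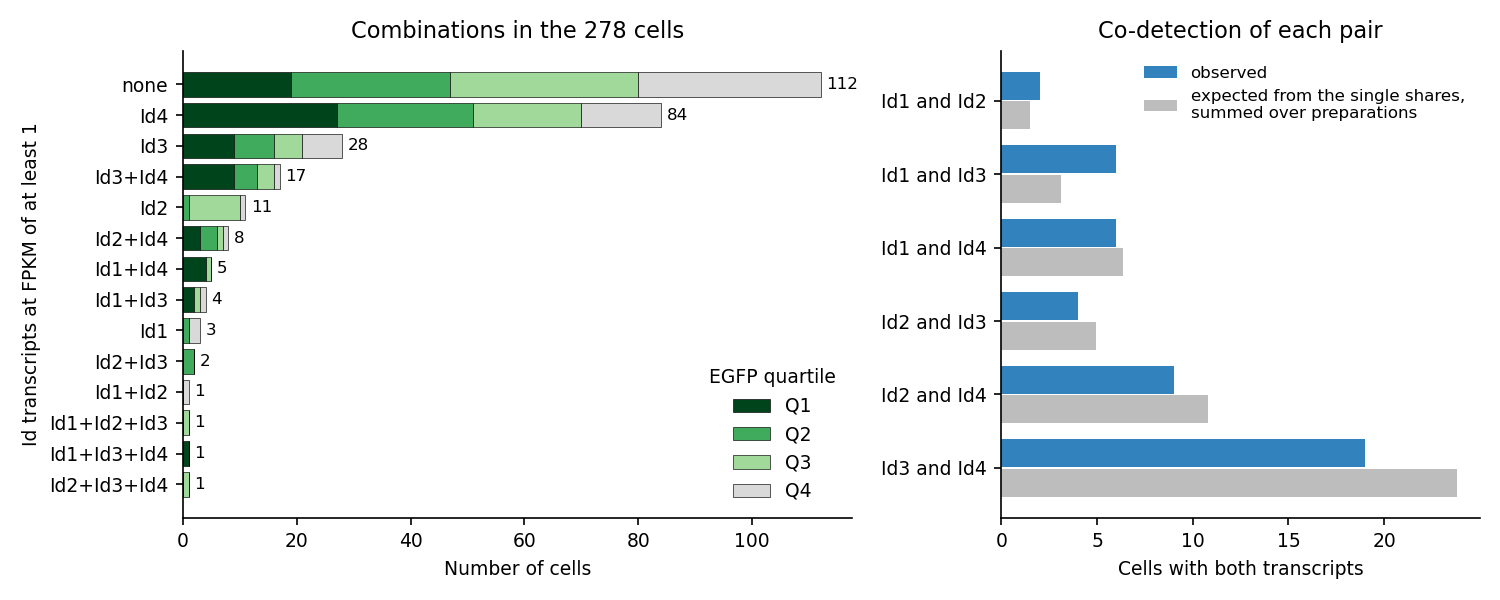
Left, number of cells with each combination of Id transcripts at FPKM of at least 1, split by EGFP quartile. Right, cells with both transcripts of a pair, observed (blue) and expected from the single shares within preparations (grey). Cells with no member are the largest class (112), Id2 alone lies mostly in Q3, and the observed count of Id3 with Id4 (19) is below the expected 23.8.

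Id3 and Id4, the members found most often, were together in 19 cells, against 23.8 expected from their single shares within preparations. That is 16.4% of the cells with Id4 and 35.2% of those with Id3. The observed share minus the expected one was -1.81 ± 3.11 points (SD, n = 5), below 0 in 4 of 5 preparations and not beyond the spread (exact permutation p = 0.3125, adjusted p = 0.9375 over 6 pairs). Id3 was detected in 16.4% of cells with Id4 (interval 10.2 to 24.4) and in 21.6% of cells without it (15.5 to 28.7). Of the 19 cells, 10 were in Q1, 4 each in Q2 and Q3, and 1 in Q4. Id3 had the higher FPKM in 12 of them and Id4 in 7, with medians of 15.5 and 9.69 FPKM. Among them a Q1 cell of preparation 5 had 62.2 FPKM of Id3 and 162 FPKM of Id4, the highest Id4 value of all cells.

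The remaining pairs were rarer. Id1 and Id3 were together in 6 cells against 3.10 expected, a difference of 1.02 ± 0.94 points (SD, n = 5, positive in 4 of the 5 preparations, exact permutation p = 0.125, adjusted p = 0.75). These 6 cells were 40% of the cells with Id1 and 11.1% of those with Id3. Id1 and Id4 were together in 6 cells against 6.37 expected, Id2 and Id4 in 9 against 10.8, Id2 and Id3 in 4 against 4.96, and Id1 and Id2 in 2 against 1.49955. For these 4 pairs the mean difference lay between -0.46 and 0.20 points with adjusted p = 1 in the exact permutation test. Over the 278 cells, which share their libraries' depth and number of detected genes, Pearson's r of log2(FPKM + 1) within preparations ranged from -0.09 (Id2 and Id4) to 0.10 (Id1 and Id3). With transcripts this sparse, such correlations are no finding.

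Cells with 3 or more markers of 1 somatic cell type were few, but they included cells with Id transcripts. One Q3 cell of preparation 2 had 8 of 10 Sertoli markers beside 12 germ cell markers. It was the one cell with Id1, Id2 and Id3 together, at 18.8, 4.91 and 65.4 FPKM, and Id4 was listed at 0 there. Both cells with 3 Sertoli markers were in Q2 of preparation 4. They had only Id3 (31.02 FPKM) in one case and only Id4 (27.7 FPKM) in the other. A Q1 cell of preparation 4 with 3 endothelial markers had 155 FPKM of Id3 and 20.7 FPKM of Id4. Without these 4 cells the Id4 difference of Q1 and Q4 was 1.58 and that of Id3 0.29.

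At least 1 of 10 Sertoli markers was detected in 46.7% of cells with Id1 and in 24.3% of those without. For Id4 these shares were 37.1 and 17.3%, for Id2 29.2 and 25.2%, and for Id3 25.9 and 25.4%. The summed level of the 10 ran from 0 to 192 FPKM in Q1, 0 to 277 in Q2, 0 to 1245 in Q3 and 0 to 109 in Q4, and was 0 at the median with and without each member. Amh and Fshr were at 0 in all cells. Sox9 was detected in 21 cells, Wt1 in 17 and Inha in 9, and 12, 8 and 7 of these had Id4. Aard was in 7 cells, Gata4 in 4, Cldn11 in 3 and Inhbb in 2, and 2, 1, 0 and 0 of these had Id4. Clu was the Sertoli marker in the most cells, 28, of which 20 had Id4. At least 1 marker of each other somatic type was also found in a larger share of cells with Id4 than of cells without it. The shares were 39.7 and 30.9% (endothelial), 43.97 and 32.1% (stromal), 25 and 17.9% (Leydig), 21.6 and 12.96% (macrophage) and 17.2 and 12.96% (peritubular myoid). All these shares pool the preparations. Among the markers, Star was in 55 cells, 29 of them with Id4, and Cd68 in 40 cells, 21 of them with Id4. Of the Leydig markers Cyp11a1, Cyp17a1, Hsd3b1 and Insl3 were at 0 in all cells, as were the macrophage genes C1qa, C1qb and Lyz2, and no cell had 3 macrophage or Leydig markers. The part of these markers in the Id results was not tested beyond leaving out the 4 cells.

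The genes whose levels were most like those of each member were taken as the 5 with the highest Pearson's r over 278 cells on log2(FPKM + 1) after removal of preparation means, and they are a description. For Id4 they were Bcl6b (r = 0.29), Dusp6 (0.28), Tcl1 (0.27), Fst (0.27) and Pbx3 (0.26), against a central 95% of all genes from -0.12 to 0.15. Bcl6b and Dusp6 are known as genes induced by GDNF or its downstream ERK signalling, Tcl1 as a coactivator of AKT, and Fst encodes follistatin, which binds activins and BMPs. Fst was detected in 52.6% of cells with Id4 and in 24.7% of the others, Bcl6b in 59.5 and 40.7%, and Dusp6 in 92.2 and 71.6%. The genes were picked by r with Id4, so the gaps between these shares are in part set by that choice. Shares with and without a member pool the preparations here and below, and no such share over all genes is given. Quartiles were not removed before these correlations, so the direction of these genes between Q1 and Q4 is in part set by how they were picked. Their Q1 minus Q4 was 1.05 ± 0.37 for Bcl6b, 1.82 ± 0.41 for Dusp6, 2.40 ± 0.49 for Tcl1, 1.51 ± 0.39 for Fst and 0.73 ± 0.21 for Pbx3 (SE, limma adjusted p = 0.272, 0.0917, 0.0515, 0.138 and 0.170).

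The highest r of any member was found for Id2, which was detected in only 24 cells, 7 of them from Q3 of preparation 5. Quartiles were not removed here either. The shares given next are of genes picked by this r, so they are in part set by that choice. Camk4, a calcium-dependent kinase, reached r = 0.40 and was detected in 14 of 24 cells with Id2 (58.3%) against 20.1% of the others. Cited1, a transcriptional coregulator, reached 0.39 and was detected in 22 of 24 cells with Id2 (91.7%) against 40.2% of the others. Aqp11 (0.31), 4933439C10Rik (0.29) and Slc27a2 (0.28) followed, against a central 95% of all genes from -0.12 to 0.14. Between Q1 and Q4, Camk4 differed by -0.28 ± 0.21 and Cited1 by 0.28 ± 0.42 (SE, limma adjusted p = 0.655 and 0.852). For Id3 the closest were Plcl1 (0.26), Gm3833 (0.24), Ppm1j (0.22), Mnd1 (0.21) and Snhg8 (0.20). For Id1 they were Gne (0.30), Dsel (0.28), 4933400F21Rik (0.26), Bcl7a (0.26) and Myl9 (0.24), each with 6 or 7 cells that also had Id1, so these rest on few cells.

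The partners of ID proteins were present in nearly all cells with a member. At least 1 of the E proteins Tcf3, Tcf4 and Tcf12 was detected in 266 of 278 cells, in 115 of 116 cells with Id4 and in 164 of 166 cells with any member. Tcf12 stood at 26.1 ± 5.39 FPKM, Tcf3 at 12.6 ± 5.81 and Tcf4 at 5.13 ± 1.05 (SD, n = 5), so Tcf12 was above Id4 and Tcf4 below it in mean level. Tcf3 was detected in 88.8% of cells with Id4 and 70.4% of the others, and its r with Id4 was 0.12. None of the 3 passed between Q1 and Q4: Tcf12 differed by 0.64 ± 0.39, Tcf3 by 0.45 ± 0.34 and Tcf4 by 0.29 ± 0.28 (SE, limma adjusted p = 0.556, 0.656 and 0.732).

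The genes that E proteins pair with, or that ID proteins act beside, were mostly low. Of 38 bHLH activators restricted to certain tissues, 10 were tested, and 0 passed in limma. Their median difference between Q1 and Q4 was 0.06, against 0.17 for all genes tested. At an unadjusted p under 0.05, 1 was higher and 1 lower, against 10.4 and 1.03% of all genes. Those nearest the threshold were Tcfl5 (0.91 ± 0.36), Neurog3, a progenitor gene (-0.47 ± 0.22), Sohlh1 (-0.36 ± 0.31) and Figla (0.44 ± 0.54), with limma adjusted p of 0.321 to 0.804. Sohlh1 and Sohlh2, activators of spermatogonial differentiation, were the most abundant, at 114 ± 31.5 and 98.5 ± 26.1 FPKM (SD, n = 5). They were detected in 87.1 and 90.5% of cells with Id4 and in 93.2 and 92.6% of the others. Their r with Id4 was -0.19 and -0.06. Among bHLH repressors of the HES, HEY and BHLHE families, 4 of 9 were tested and 0 passed, with a median of 0.26. At an unadjusted p under 0.05, 1 was higher, Bhlhe41 (1.38 ± 0.33, adjusted p = 0.107), whereas Hes1 gave 0.50 ± 0.33, Hey1 -0.44 ± 0.22 and Hes6 0.03 ± 0.24.

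The BMP pathway, the known input to Id genes, included a type I receptor with a difference near that of Id4, although neither passed. Of 11 BMP receptors and SMADs 8 were tested and 0 passed in limma, with 7 above 0 (69.5% of all genes tested lay above 0) and a median of 0.25. Bmpr1a, a type I receptor, differed by 1.33 ± 0.34 (SE, limma p = 0.000721, adjusted p = 0.138) and was the 1 gene of the list higher at an unadjusted p under 0.05, where the share over all genes was 10.4%. It was detected in 79.5% of cells, in 84.5% of those with Id4 and 87.04% of those with Id3. Smad4 (0.50 ± 0.34), Acvr1 (0.29 ± 0.19) and Acvr2b (0.30 ± 0.38) followed, with limma adjusted p of 0.590 to 0.817. Of 13 inhibitors of the pathway 7 were tested and 0 passed in limma, with a median of 0.30. Skil, a SMAD corepressor, gave 0.97 ± 0.27 (adjusted p = 0.163) and was the 1 gene of that list higher at an unadjusted p under 0.05. Smad7 (0.30 ± 0.27), Ski (0.39 ± 0.38) and Smurf1 (0.31 ± 0.34) came next.

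Other genes around the family gave the following counts, with 0 passing in limma in every list. Over all genes tested, 10.4% were higher and 1.03% lower at an unadjusted p under 0.05. Of 4 EGR genes, immediate early factors known to activate Id3 in lymphocytes, 3 were tested, and 2 were higher at an unadjusted p under 0.05: Egr1 by 1.12 ± 0.27 (SE, limma adjusted p = 0.107) and Egr2 by 1.15 ± 0.39 (adjusted p = 0.250). Egr4 gave -0.21 ± 0.36. Egr2 was detected in 63.8% of cells with Id4 and in 37.7% of the others, with r = 0.25. All 6 genes of ID protein turnover were tested, and 2 were higher at an unadjusted p under 0.05, with a median of 0.42: Cops5, a COP9 signalosome subunit (0.48 ± 0.18), and Wdr48, a partner of the deubiquitinase USP1 (0.84 ± 0.36). Cdc20 gave 0.69 ± 0.40 and Psmd4 0.35 ± 0.23. Of 15 further effectors and partners, among them retinoblastoma proteins, ETS factors and cell cycle inhibitors, 13 were tested and 1 was lower at an unadjusted p under 0.05, Cdkn2a (-0.57 ± 0.24, limma adjusted p = 0.357), with a median of 0.06. Elk1 gave 0.40 ± 0.22, Ccna2 0.48 ± 0.34 and Cdkn1c -0.47 ± 0.40.

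For context, all 7 stem cell genes were tested and lay above 0, with a median of 1.04, and 4 were higher at an unadjusted p under 0.05, against 69.5% above 0 and 10.4% higher among all genes tested. Gfra1, the GDNF coreceptor, gave 1.93 ± 0.43 and Etv5 1.62 ± 0.39 (SE, limma adjusted p = 0.0858 and 0.107), and Bcl6b and Ret followed at 1.05 ± 0.37 and 1.04 ± 0.37 (adjusted p = 0.272 and 0.275). Etv5 was detected in 93.97% of cells with Id4 and in 72.2% of the others, and Gfra1 in 83.6 and 61.7%. The difference of Id4 thus had about the size of that of Etv5.

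**Figure D4:**
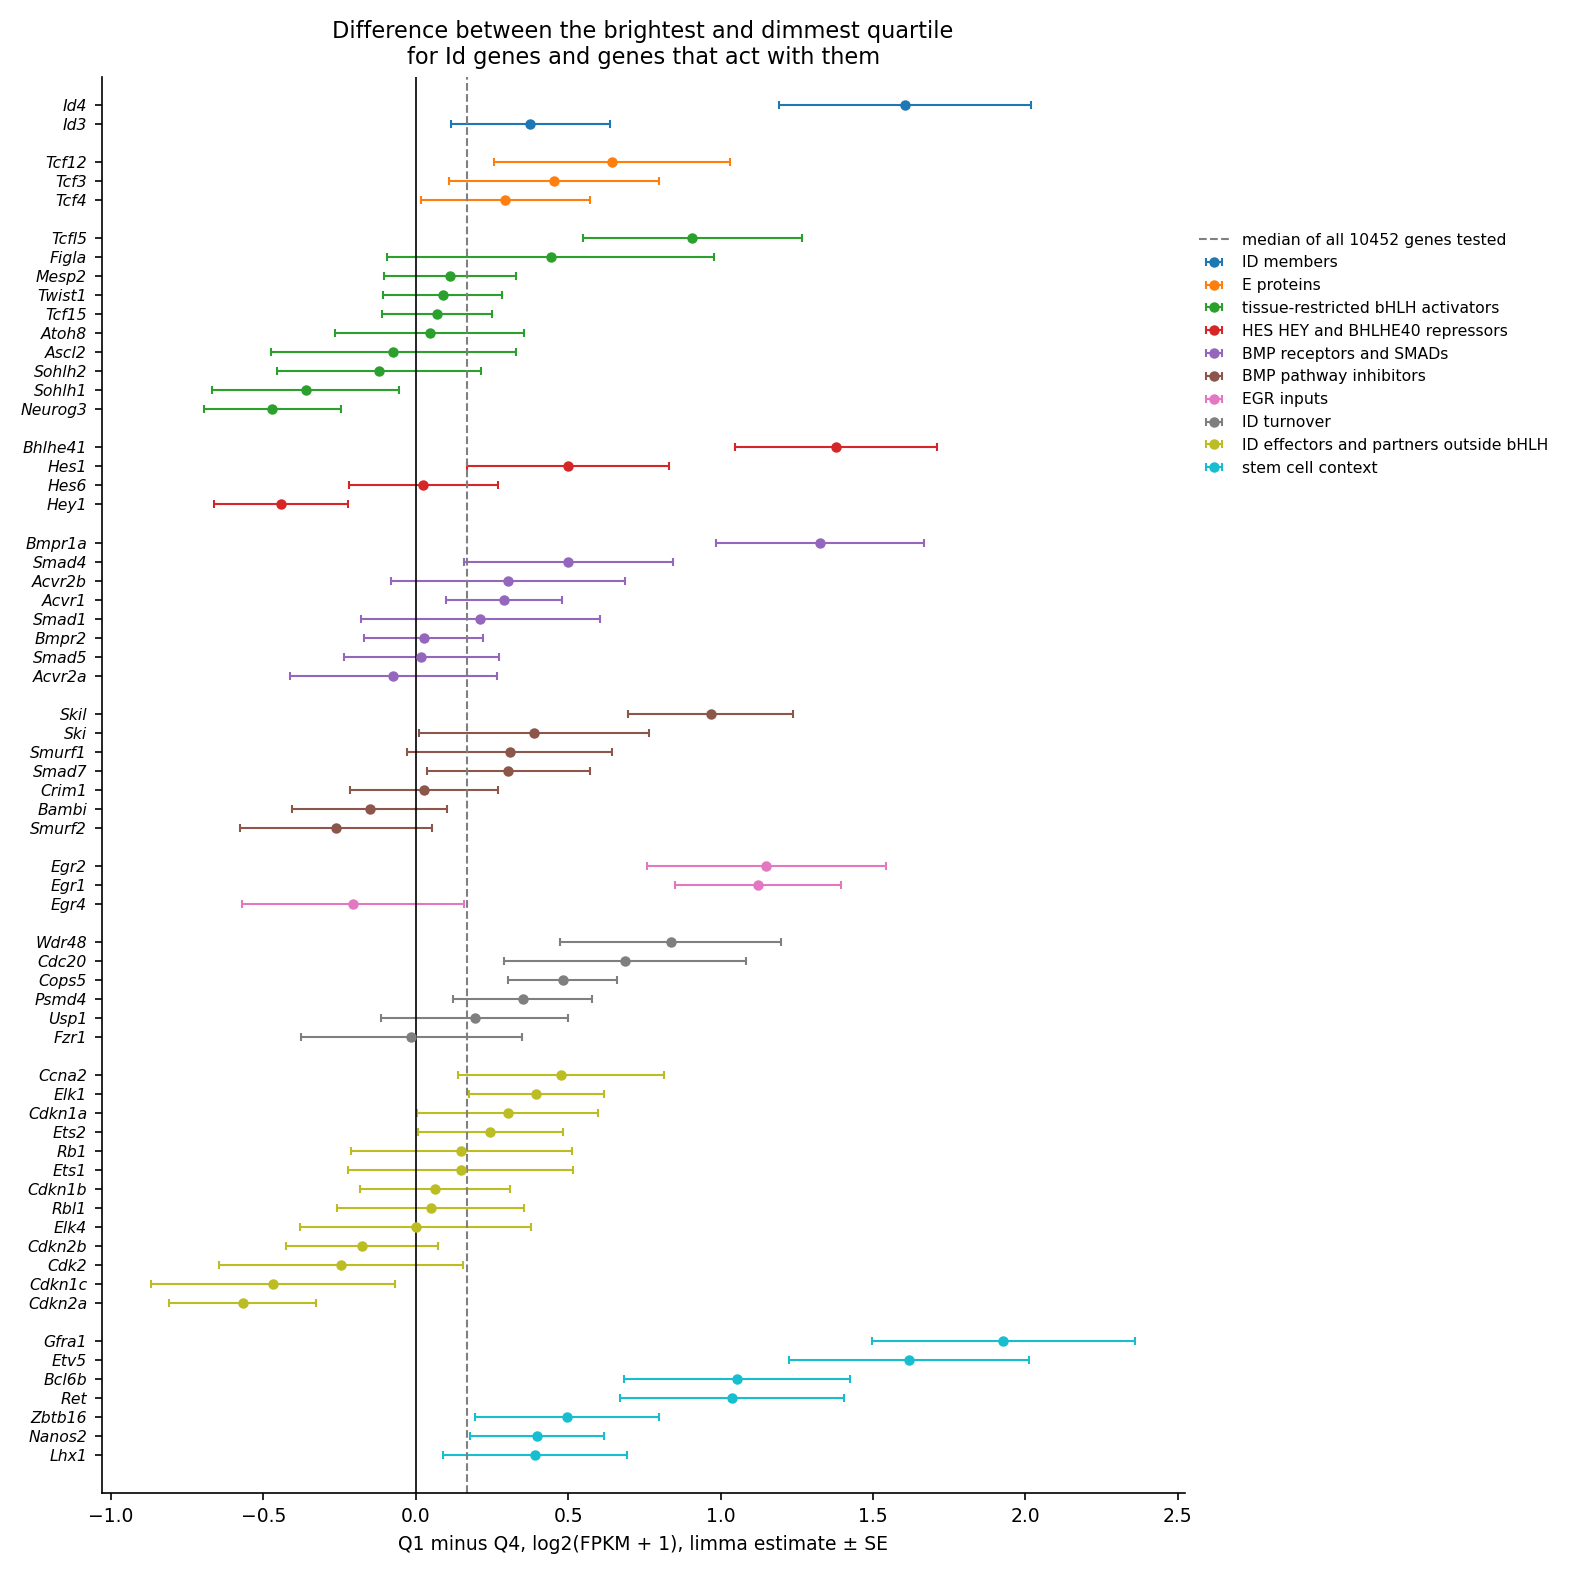
Difference between Q1 (bright) and Q4 (dim) on log2(FPKM + 1) for the Id genes that passed the filter and for genes that act with them, as limma estimates with bars of 1 SE. The dashed line is the median of all 10452 genes tested (0.17). Id4, Bhlhe41, Bmpr1a, Egr1, Egr2, Gfra1, Etv5, Bcl6b and Ret lie right of 1, E proteins lie between 0.29 and 0.64, and no gene shown passed at an adjusted p under 0.05.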

How the data were processed

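Single-cell RNA-seq of 278 cells was analysed from a matrix of FPKM values that the authors deposited. The file header states no unit, so it was read from the quantifier's name and the values. The tools named per the submitters' processing notes are TopHat, Cufflinks, Picard and FastQC, with the genome mm10 (GRCm38). No version, setting or annotation is named there. Dead cells, multiplets and debris were left out after imaging, per the labels' protocols.

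The cells of a preparation and quartile were averaged on log2(FPKM + 1), which gave 20 means. Genes detected in 10% of cells (10452) were fitted with limma 3.58.1 (R 4.3.3, trend = TRUE), weighted by number of cells, with preparation as a block (12 residual degrees of freedom). All tests are two-sided, with Benjamini-Hochberg adjustment over all genes and a threshold of 0.05. Deviations of means of the same preparation from quartile means correlated across genes at a median of 0.19 (lowest 0.08, 30 pairs), against -0.07 between preparations, so the numbers pair the means. Shares of cells, co-detection and levels were compared with exact sign-flip permutation tests over preparations (Python 3.11.15, scipy 1.17.1). Co-detection was the share of cells with both members minus the product of their shares in the same preparation. The fit was tested on simulated data with known changes. Depth was estimated from steps between low FPKM of 2113 genes with 1 transcript, and in 270 cells 2 such estimates from non-overlapping gene sets differed by at most 1.25-fold. If values were rescaled before deposit, it is an effective depth.

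Named genes are the members, in each list those past the threshold or else the 4 with the smallest p, and the 5 closest genes of each member. The members, gene lists and tests were chosen with earlier results of these data known. Tcf24 and the macrophage marker Adgre1 had no row. Alternatives covered pseudocount, averaging, filter, scaling, covariate, block, weights, detection threshold and each preparation left out. The reporter transcript was not analysed here.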

Additional observations from a re-analysis of the deposited data

Results flagged for a closer look

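In groups of 5 preparations, the highest or lowest value was compared with the rest by Dixon's test at the 95% level. Of 48 groups tested 7 were far from the others on this measure. Chance flags about 1 in 20 only for independent, normally spread values. Here the groups hold several measures of the same cells and many values of 0, so that rate does not apply. For Id1 in Q2, preparation 5 had the 1 cell with the transcript and the other 4 had 0, so it stood apart in share of cells (5%), mean level (0.394 FPKM) and mean log2(FPKM + 1) (0.16). For Id2, preparation 5 was highest in Q3 at 15.6 FPKM (next 2.71) and in Q4 at 12.7 FPKM (next 1.30). For Id3, preparation 4 was highest in Q4 at 32.4 FPKM (next 7.497). For Id4, preparation 3 was lowest in Q4, at 0% of 7 cells (next 25%).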

How the results depend on the processing

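Id4 was higher in Q1 than in Q4 under all 15 alternatives, from 1.31 to 2.71 (limma adjusted p 0.0465 to 0.799), and passed in 1. That was without preparation 2, at 1.92 and a slope of 0.62, and with preparations left out in turn it ranged from 1.31 to 1.92 (slope 0.37 to 0.62). Id3 kept its direction under all 14 that could be fitted (0.25 to 0.77, adjusted p 0.441 to 0.982), and a filter at 25% of cells leaves it out. Without the replicate block Id4 was 1.57 (adjusted p = 0.540) and Id3 0.40, and the block changed no call of a member. From log2 of mean FPKM, Q1 minus Q4 was 0.92 for Id1 and -1.09 for Id2 (slopes 0.22 and -0.37). With detected genes as covariate Id1 turned to -0.016 (slope -0.021). Leaving out preparations, Id2 ranged from -0.25 to 0.060 (slope -0.13 to 0.033, above 0 without preparation 5), and its difference in share from -1.49 to 4.27 points. The cause was not tested. The 8 genes called became 44 with a common 75th percentile, 11 and 2 without preparations 2 and 3, and 0 without the filter, the block, weights or preparations 1, 4 or 5, with the covariate, with log2 of mean FPKM or with Q1 and Q4 alone. The 14 genes of the slope became 64 with the common percentile, 9 without preparation 2 or 3, and 0 in the other fits just named that give a slope. Co-detection of Id3 and Id4 stayed below 0 (-2.91 to -0.84 points) and that of Id1 and Id3 above 0 (0.78 to 1.31) under all 10 alternatives. The other pairs crossed 0. Within preparation and quartile, Id1 and Id2 gave 0.14 and Id1 and Id4 -0.23, and within upper and lower cells by detected genes Id1 and Id2 gave 0.13. At FPKM of 5, Id2 and Id3 gave -0.83 and Id2 and Id4 0.0042, and without the 4 cells with somatic markers (chosen after seeing the data) Id2 and Id3 gave -0.12. With preparations left out they ranged from -0.36 to 0.37 (Id1 and Id2), -0.23 to 0.90 (Id1 and Id4), -0.48 to 0.52 (Id2 and Id3) and -0.71 to 0.055 (Id2 and Id4). With the longest annotated transcripts, at the median depth 1 fragment of Id1 (1.38 FPKM) or Id3 (1.253) is above the detection threshold. On that basis 1 of Id2 (0.813) or Id4 (0.416) is below it. Shorter transcripts of Id2 (from 958 bases) would give a higher value, so its place depends on the transcript taken.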
